A study of Mus musculus with 12 samples.

Results

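The thrombospondin family was followed across 4 sorted mouse bone stromal populations. Its members are Thbs1, Thbs2, Thbs3, Thbs4 and Comp, which is also called thrombospondin 5. They were found by matching Ensembl identifiers to gene symbols, which gave 5 genes of the 49585 in the count files. RNA came from wild-type C57BL/6 male mice aged 8 to 10 weeks at steady state, with 3 libraries of 2000 cells for each population. All cells were sorted as negative for CD45, Ter119 and CD31, markers of haematopoietic, erythroid and endothelial cells, whose transcripts were nonetheless found and are given below. Itga8+Alcam+Sca-1- cells (Itga8+ MSCs, mesenchymal stem cells), Itga8-Alcam+Sca-1- cells (Itga8-Alcam+ BLCs, bone-lining cells, labelled osteoblasts) and Alcam-Sca-1+ cells (Sca-1+ MSCs) were released with collagenase from bone fragments after the marrow had been flushed out. CD51+CD140a+ MSCs came from the flushed marrow itself, which was digested with another enzyme mixture. The 4 populations are called Itga8+, Itga8-Alcam+, Sca-1+ and CD51+CD140a+ cells below. In every comparison with CD51+CD140a+ cells, the population therefore cannot be told apart from its tissue and its digestion. The populations are bulk sorts, so fewer cells of a type and less RNA per cell cannot be told apart either, and the sources used here do not say whether the 3 libraries of a population came from separate mice. If they did not, the p-values measure technical spread only.

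Thrombospondins are secreted, calcium-binding glycoproteins of the extracellular matrix. Thbs1 and Thbs2 assemble into trimers, carry type 1 repeats and are known as inhibitors of angiogenesis, and Thbs1 also activates latent TGF-beta and is released in large amounts by platelets. Thbs3, Thbs4 and Comp assemble into pentamers and lack type 1 repeats, and Comp and Thbs4 are abundant in cartilage, tendon and ligament, where they bind collagens. In the GRCm38 annotation (GENCODE M21), which has the same coordinates as the mm10 build of the files, Thbs1 lies at chr2:118111876-118127133 on the plus strand and Thbs2 at chr17:14665500-14694235 on the minus strand. Thbs3 lies at chr3:89215180-89226837 on the plus strand, Thbs4 at chr13:92751590-92794818 on the minus strand and Comp at chr8:70373558-70382066 on the plus strand. The longest coding sequences have 3513 bases in Thbs1, 3516 in Thbs2, 2868 in Thbs3, 2889 in Thbs4 and 2265 in Comp. Aligned end to end, they were identical at 63.9% to 71.8% of aligned bases, with the highest identities between Thbs4 and Comp (71.8%) and between Thbs3 and Comp (71.4%).

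No run of 50 bases in a transcript of Thbs2, Thbs4 or Comp occurred in another gene, so reads of these members could not be shared with each other at that length. In Thbs1, 98.107% of such runs were found in no other gene, and in Thbs3 96.458%. The remaining runs were shared with Gm29233 and with Mtx1. On the opposite strand, 208 exon bases of Thbs1 overlap the non-coding gene Gm29233 and 318 exon bases of Thbs3 overlap Mtx1. The strand setting of the counting is not given in the sources used here. Counts of Thbs1 and Gm29233, and of Thbs3 and Mtx1, can therefore not be fully told apart.

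RefSeq promoters of 250 bases before and 50 bases after the start were at hand for 3 of the members. These members are Thbs2, Thbs3 and Thbs4, and a link between the sequences and the levels was not tested. Both strands were searched for TATAAA, for the E box CANNTG, for the GC box GGGCGG, for CATTCC (the TEAD motif) and for the CArG box. Matches are in capitals.
Thbs2, chr17:14694213-14694512, minus strand: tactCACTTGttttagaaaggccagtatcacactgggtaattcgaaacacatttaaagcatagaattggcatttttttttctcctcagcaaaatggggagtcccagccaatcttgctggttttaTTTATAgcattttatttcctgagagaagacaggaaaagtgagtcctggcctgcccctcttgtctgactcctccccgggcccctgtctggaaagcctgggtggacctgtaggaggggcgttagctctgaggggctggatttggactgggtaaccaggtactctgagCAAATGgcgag
Thbs3, chr3:89214930-89215229, plus strand: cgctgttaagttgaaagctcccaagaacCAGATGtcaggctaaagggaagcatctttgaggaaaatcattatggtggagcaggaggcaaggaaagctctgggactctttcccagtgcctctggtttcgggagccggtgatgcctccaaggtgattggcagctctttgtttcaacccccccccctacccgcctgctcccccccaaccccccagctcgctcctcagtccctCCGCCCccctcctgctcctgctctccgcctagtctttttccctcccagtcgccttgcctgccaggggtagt
Thbs4, chr13:92794769-92795068, minus strand: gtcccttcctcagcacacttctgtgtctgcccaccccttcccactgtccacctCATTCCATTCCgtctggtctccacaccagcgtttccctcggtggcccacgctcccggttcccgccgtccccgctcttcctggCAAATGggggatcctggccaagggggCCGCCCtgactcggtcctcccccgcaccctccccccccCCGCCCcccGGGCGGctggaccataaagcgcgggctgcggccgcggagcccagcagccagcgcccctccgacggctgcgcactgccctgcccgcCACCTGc
The promoters (build GRCm38.p6) had G or C at 48.3% of bases in Thbs2, 59.0% in Thbs3 and 72% in Thbs4. The GC box matched 3 times in Thbs4, at the bases that start 89, 51 and 42 before the gene's start, and 1 time in Thbs3, 21 before it. It did not match in Thbs2, and 35.6% of 32817 RefSeq promoters of this length held it. The Thbs4 promoter held 2 matches to CATTCC that share their joining base, and 14.7% of promoters held this motif. TATAAA matched only in Thbs2 (13.6% of promoters), on the reverse strand and 126 bases before the start. The E box matched 2 times in Thbs2, 1 time in Thbs3 and 2 times in Thbs4, and in 72.3% of promoters. The CArG box, which 1.63% of promoters held, matched in none of the 3. These matches are descriptions of the letters in the window.

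The libraries held 17580677 to 31332475 counts on genes, and 3 counts corresponded to 0.082 to 0.18 CPM (read counts relative to the library total, corrected by TMM scaling), the scale of all levels below unless TPM is named. The replicates were closer in Sca-1+ cells and CD51+CD140a+ cells (Pearson's r of log2 CPM across genes of 0.958 to 0.973 and 0.953 to 0.971) than in Itga8-Alcam+ cells (0.858 to 0.930) and Itga8+ cells (0.754 to 0.927). Itga8 was at 35.2 to 198.9 CPM in Itga8+ cells, 0.398 to 4.17 in Itga8-Alcam+ cells, 1.87 to 2.88 in Sca-1+ cells and 53.1 to 82.9 in CD51+CD140a+ cells. Ly6a, one of the genes for Sca-1, was at 610.9 to 658.7 CPM in Sca-1+ cells and at most 35.7 elsewhere. Itga8+ replicates 2 and 3 and Itga8-Alcam+ replicate 2 stood apart for several members. Values without them stand beside the results of the members.

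A member was called when its adjusted p (FDR, edgeR's quasi-likelihood test on all 12 libraries with Benjamini-Hochberg adjustment over the 18648 genes tested) was under 0.1 and its fold change above 2. All 5 members passed the filter for testing. Each of them was at 12.5 CPM or more in all 12 libraries, except Thbs4, which was at 0.419 CPM or less in CD51+CD140a+ cells. In Itga8+ cells against Itga8-Alcam+ cells, 1 of 5 members was higher (Thbs4) and 0 were lower, where 1.66% of all genes tested were higher and 2.16% lower. Against Sca-1+ cells, no member was called in Itga8+ cells in either direction (backgrounds of 12.9% higher and 8.89% lower). Itga8+ cells were higher than CD51+CD140a+ cells in 3 members (Thbs3, Thbs4 and Comp) and lower in 0 (backgrounds of 21.2% and 14.3%). In Itga8-Alcam+ cells, 3 members (Thbs2, Thbs3 and Thbs4) were lower than in Sca-1+ cells and 0 higher (backgrounds of 11.9% lower and 14.5% higher). The same 3 members as for Itga8+ cells were higher in Itga8-Alcam+ cells than in CD51+CD140a+ cells and 0 lower (20.4% and 14.9%). In Sca-1+ cells, 4 members, all except Thbs1, were higher than in CD51+CD140a+ cells and 0 lower (11.2% and 9.30%). These 6 comparisons share libraries and are not independent.

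**Figure D1:**
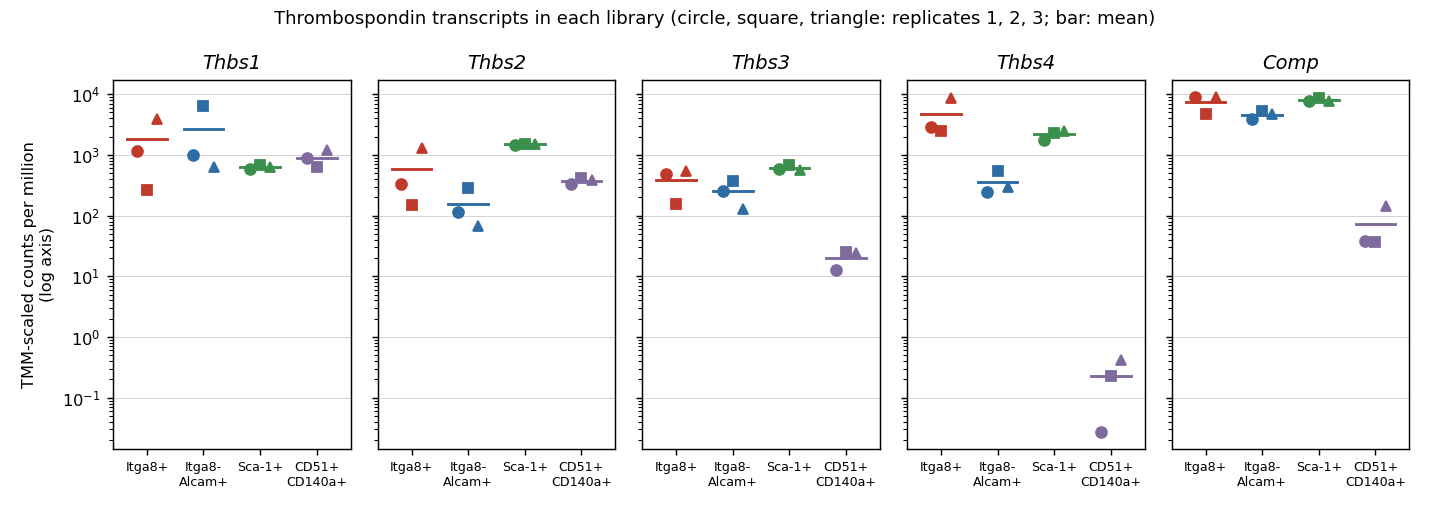
Level of each member (columns) in every library, as TMM-scaled CPM on a log axis. Circles, squares and triangles are replicates 1, 2 and 3 and bars are means. Thbs3, Thbs4 and Comp sit lowest in all 3 CD51+CD140a+ libraries, Thbs2 is highest in the Sca-1+ libraries (1445.5 to 1538.7), and Thbs1 ranges from 264.3 to 6320.8 within the 2 Alcam+ populations.

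Comp, which links collagen fibrils and is best known from cartilage, was by mean the most abundant member in each population from bone. Among single bone libraries, only Itga8-Alcam+ replicate 2 had another member above it, Thbs1 at 6321 CPM. Comp was at 9170, 4646 and 8888 CPM in replicates 1, 2 and 3 of Itga8+ cells. In Itga8-Alcam+ cells it was at 3980, 5223 and 4656 CPM. In Sca-1+ cells it was at 7655, 8527 and 7773 CPM. In CD51+CD140a+ cells it was at 38.4, 36.7 and 146.8 CPM, below every library of bone. Comp took 0.384% to 1.05% of all counted reads in the 9 bone libraries and at most 0.0154% in CD51+CD140a+ cells. The difference from CD51+CD140a+ cells was 102.3-fold in Itga8+ cells (log2 fold change 6.68 ± 0.615 SE, FDR 1.48e-05), 62.4-fold in Itga8-Alcam+ cells (5.96 ± 0.595, FDR 2.47e-05) and 107.9-fold in Sca-1+ cells (6.75 ± 0.617, FDR 1.38e-05). Without CD51+CD140a+ replicate 3, the library with the highest Comp level of that population, these log2 fold changes were 7.65, 6.94 and 7.73. Among the populations from bone, Comp was not called in any comparison. The log2 fold change of Itga8+ cells over Sca-1+ cells was -0.08 (95% interval -1.12 to 0.97, FDR 0.934), and 0.16 without Itga8+ replicate 2. That over Itga8-Alcam+ cells was 0.71 (-0.34 to 1.76, FDR 0.658), and that of Itga8-Alcam+ cells over Sca-1+ cells -0.79 (-1.84 to 0.26, FDR 0.264), although in this last comparison every Itga8-Alcam+ library was below every Sca-1+ library. In an exact two-sided permutation test 3 libraries against 3 cannot give a p below 0.1, which was the value in that comparison.

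Thbs4, a matrix protein of tendon, muscle and nerve, showed the widest range of the family. It was at 2848, 2504 and 8750.5 CPM in replicates 1, 2 and 3 of Itga8+ cells. In Itga8-Alcam+ cells it was at 240.8, 533.9 and 294.2 CPM. In Sca-1+ cells it was at 1762, 2314 and 2451 CPM. The 3 CD51+CD140a+ libraries held 1, 8 and 13 reads of Thbs4, which are 0.0273, 0.229 and 0.419 CPM, the lowest of them under the 3 counts taken as the floor. On this scale the order was Itga8+ cells, Sca-1+ cells, Itga8-Alcam+ cells and CD51+CD140a+ cells, with no overlap but little distance between the first and the second. In TPM (counts per exon length, scaled to an equal total in each library) they overlapped, since Itga8+ replicate 2 was at 1890 TPM of Thbs4 and the Sca-1+ libraries were at 2034 to 2712 TPM. Thbs4 was 13.2-fold higher in Itga8+ cells than in Itga8-Alcam+ cells (log2 fold change 3.72 ± 0.657 SE, 95% interval 2.29 to 5.15, FDR 0.00949), the one member called between these 2 Alcam+ populations. Without Itga8+ replicate 3 the log2 fold change was 2.91 (FDR 0.0170). The neighbours at the top of the order, Itga8+ cells and Sca-1+ cells, were not called different. Their log2 fold change was 1.11 (-0.19 to 2.41, FDR 0.215), and 0.26 without Itga8+ replicate 3 (FDR 0.746). Thbs4 was lower in Itga8-Alcam+ cells than in Sca-1+ cells, by 6.11-fold (log2 fold change -2.61 ± 0.625, FDR 0.0123). Over CD51+CD140a+ cells the fitted log2 fold changes were 14.34 ± 1.02 in Itga8+ cells (FDR 2.34e-06), 10.62 ± 0.91 in Itga8-Alcam+ cells (FDR 8.65e-06) and 13.23 ± 0.988 in Sca-1+ cells (FDR 3.57e-06). The size of these 3 values rests on the few reads of CD51+CD140a+ cells, and they were 15.11, 11.39 and 14.00 without CD51+CD140a+ replicate 3. Without Itga8+ replicate 3 the first of them was 13.53. The CD51+CD140a+ libraries, with the lowest Thbs4, had Itga8 levels within the range of the Itga8+ libraries.

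Thbs3, the least studied member of the pentameric group, was lower in level and shared the gap between bone and marrow. It was at 489.4, 155.4 and 533.5 CPM in replicates 1, 2 and 3 of Itga8+ cells. In Itga8-Alcam+ cells it was at 258.1, 371.6 and 129.7 CPM, and in Sca-1+ cells at 579.0, 686.3 and 554.9 CPM. In CD51+CD140a+ cells it was at 12.5, 24.9 and 23.8 CPM, whereas the lowest library of bone was at 129.7 CPM. The difference from CD51+CD140a+ cells was 19.2-fold in Itga8+ cells (log2 fold change 4.27 ± 0.545 SE, FDR 0.000144), 12.4-fold in Itga8-Alcam+ cells (3.63 ± 0.529, FDR 0.000352) and 29.7-fold in Sca-1+ cells (4.89 ± 0.562, FDR 7.68e-05). Mtx1, which overlaps Thbs3 on the opposite strand and encodes a mitochondrial import protein, differed in the same direction but by less, with log2 fold changes over CD51+CD140a+ cells of 1.51, 1.07 and 1.74 (FDR 0.000397, 0.00348 and 0.000174). Thbs3 was lower in Itga8-Alcam+ cells than in Sca-1+ cells (log2 fold change -1.26 ± 0.484, FDR 0.0834). This call was lost at an FDR of 0.05 and when any of 6 libraries was left out, with FDR values of 0.166 and 0.244 without Itga8-Alcam+ replicates 1 and 3, 0.147, 0.192 and 0.141 without Sca-1+ replicates 1, 2 and 3, and 0.105 without CD51+CD140a+ replicate 3. The call was also lost in a fit with the replicate number as a block (-1.27, FDR 0.138). Itga8+ replicate 2 was the lowest of its population. Without it, the log2 fold change of Itga8+ cells was 1.04 over Itga8-Alcam+ cells, -0.26 over Sca-1+ cells and 4.67 over CD51+CD140a+ cells. With all libraries, between Itga8+ cells and the other bone populations Thbs3 was not called (0.63, 95% interval -0.41 to 1.67, over Itga8-Alcam+ cells, and -0.63, -1.67 to 0.41, over Sca-1+ cells).

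Thbs2, a trimeric member that limits angiogenesis and shapes collagen fibrils, was highest in Sca-1+ cells, where the 3 libraries held 1445.5, 1531 and 1539 CPM. In Itga8+ cells it was at 328.5, 149.9 and 1295 CPM in replicates 1, 2 and 3. In Itga8-Alcam+ cells it was at 114.8, 287.4 and 66.8 CPM, and in CD51+CD140a+ cells at 326.5, 412.0 and 391.8 CPM. Every Sca-1+ library was above every other library, and the Itga8+ libraries spread 8.64-fold around those of CD51+CD140a+ cells. Thbs2 was 9.63-fold lower in Itga8-Alcam+ cells than in Sca-1+ cells (log2 fold change -3.27 ± 0.723 SE, FDR 0.00822), and -4.09 on the log2 scale without Itga8-Alcam+ replicate 2 (FDR 0.00560). It was 3.99-fold higher in Sca-1+ cells than in CD51+CD140a+ cells (log2 fold change 2.00 ± 0.687, FDR 0.0693). The latter call was lost at an FDR of 0.05 and without any of the 6 libraries compared, where the log2 fold change stayed at 1.9 to 2.07 and the FDR was 0.126, 0.135 and 0.138 without Sca-1+ replicates 1, 2 and 3, and 0.183, 0.149 and 0.161 without CD51+CD140a+ replicates 1, 2 and 3. The call was also lost in a fit with the replicate number as a block (2.01, FDR 0.105). Itga8+ cells lay between the other populations from bone, with log2 fold changes of 1.92 over Itga8-Alcam+ cells (0.43 to 3.41, FDR 0.239) and -1.35 over Sca-1+ cells (-2.82 to 0.12, FDR 0.187). Both values depended on single libraries and on the test. With all libraries, the first passed the threshold with DESeq2 (1.94, FDR 0.0642) and the second with limma-trend (-1.91, FDR 0.062). The first was 2.40 and past the threshold without Itga8+ replicate 2 (FDR 0.0538) and 0.62 without Itga8+ replicate 3 (FDR 0.611), and the second was -2.69 and past the threshold without Itga8+ replicate 3 (FDR 0.00918). Over CD51+CD140a+ cells, Thbs2 had a log2 fold change of 0.65 in Itga8+ cells (-0.80 to 2.1, FDR 0.474), which turned to -0.65 without Itga8+ replicate 3, and of -1.27 in Itga8-Alcam+ cells (-2.73 to 0.20, FDR 0.172), which was close to the threshold. It passed at -2.05 without Itga8-Alcam+ replicate 2 (FDR 0.0506) and at -1.27 without Itga8+ replicate 2 or 3 (FDR 0.078 and 0.0601). It also passed with limma-trend (-1.53, FDR 0.0947), with library totals alone (-1.67, FDR 0.063) and in a fit of the 2 populations (-1.28, FDR 0.0759).

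Thbs1, the trimeric activator of TGF-beta, varied widely between libraries of each Alcam+ population. It was at 1178, 264.3 and 3948 CPM in replicates 1, 2 and 3 of Itga8+ cells, a 14.9-fold range. In Itga8-Alcam+ cells it was at 984.1, 6321 and 639.8 CPM, a 9.88-fold range. In Sca-1+ cells it was at 582.1, 676.7 and 632.4 CPM, and in CD51+CD140a+ cells at 884.4, 636.3 and 1196 CPM. All pairs of populations overlapped, and edgeR with all libraries called no comparison, so that the data did not separate any neighbours in the order of the means (2648 ± 3185, 1797 ± 1918, 905.4 ± 280.3 and 630.4 ± 47.3 CPM, mean ± SD, n = 3, in Itga8-Alcam+ cells, Itga8+ cells, CD51+CD140a+ cells and Sca-1+ cells). The nearest to the threshold was Itga8-Alcam+ cells over Sca-1+ cells, with a log2 fold change of 2.07 (0.08 to 4.06, FDR 0.128). The log2 fold change over Sca-1+ cells in Itga8+ cells was 1.51 (-0.44 to 3.47, FDR 0.256), and 0.17 without Itga8+ replicate 3. The value of Itga8-Alcam+ cells over Sca-1+ cells was 0.32 without Itga8-Alcam+ replicate 2 (FDR 0.786), and past the threshold without Itga8+ replicate 2 or 3 or Itga8-Alcam+ replicate 3 (FDR 0.0591, 0.0823 and 0.0880). It was also past the threshold with DESeq2 (2.05, FDR 0.0558), in a fit of the 2 populations (2.04, FDR 0.0804) and with every gene of at least 1 count tested (2.07, FDR 0.0947). Itga8+ cells over Itga8-Alcam+ cells gave -0.56 (-2.48 to 1.36, FDR 0.907), 1.17 without Itga8-Alcam+ replicate 2, and -1.86 without Itga8+ replicate 3. Over CD51+CD140a+ cells the log2 fold change was 0.99 in Itga8+ cells (-0.94 to 2.92, FDR 0.413) and -0.32 without Itga8+ replicate 3, 1.55 in Itga8-Alcam+ cells (-0.41 to 3.51, FDR 0.211) and -0.16 without Itga8-Alcam+ replicate 2, and -0.52 in Sca-1+ cells (-2.44 to 1.40, FDR 0.797). Gm29233, which overlaps Thbs1, ranged with it from 14.5 CPM in Itga8+ replicate 2 to 408.9 CPM in Itga8-Alcam+ replicate 2.

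**Figure D2:**
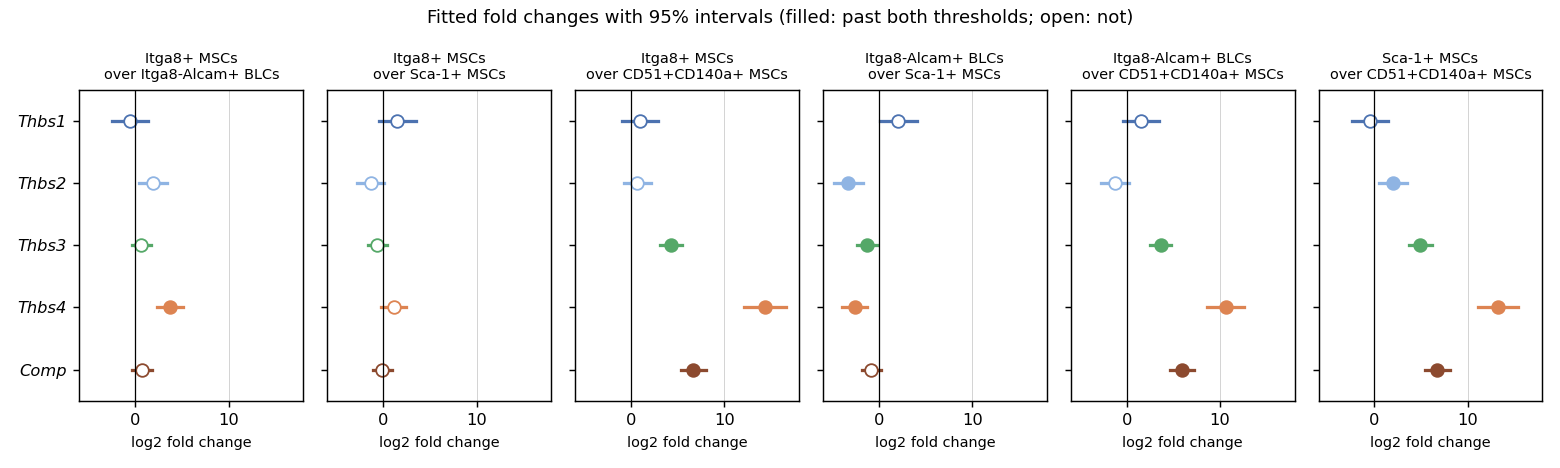
Fitted log2 fold change of each member (rows) in the 6 comparisons (columns), with 95% intervals; filled points passed the thresholds of FDR under 0.1 and fold change above 2, and open points did not. Thbs3, Thbs4 and Comp are filled in all 3 comparisons with CD51+CD140a+ cells, and Thbs4 alone is filled between the 2 Alcam+ populations (3.72).

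To compare members with each other, counts were divided by the length of the exons and scaled to an equal total in each library (TPM). Comp made up 60.6% ± 13.7 (SD, n = 3) of the summed TPM of the 5 genes in Itga8+ cells, 75.2% ± 16.0 in Itga8-Alcam+ cells and 70.9% ± 2.02 in Sca-1+ cells, but 9.72% ± 5.53 in CD51+CD140a+ cells. Thbs4 made up 30.6% ± 10.1, 4.89% ± 0.415, 17.4% ± 2.22 and 0.0280% ± 0.0208 in the same order. In CD51+CD140a+ cells the family was mostly Thbs1 (64.0% ± 6.13) and Thbs2 (24.4% ± 7.32), which made up 5.38% ± 4.10 and 1.59% ± 1.05 in Itga8+ cells, 16.5% ± 15.1 and 0.952% ± 0.402 in Itga8-Alcam+ cells, and 2.73% ± 0.0217 and 5.67% ± 0.236 in Sca-1+ cells. The 3 pentameric members together made up 64.9% to 97.3% of the family in the 9 bone libraries and 7.48% to 17.7% in the 3 marrow libraries, with no overlap. The lowest bone value, 64.9%, was Itga8-Alcam+ replicate 2, the library with the highest Thbs1, and the other 8 bone libraries were at 87.4% or above. By mean TPM over 49326 genes, Comp ranked 7 in Itga8+ cells, 18 in Itga8-Alcam+ cells and 8 in Sca-1+ cells, against 1532 in CD51+CD140a+ cells. Thbs4 ranked 14, 396, 43 and 18079 in that order. The whole family took 0.770% to 2.26% of counted reads in Itga8+ cells, 0.477% to 0.997% in Itga8-Alcam+ cells, 1.23% to 1.35% in Sca-1+ cells and 0.124% to 0.184% in CD51+CD140a+ cells. With coding length in place of exon length, the share of Comp was 61.2%, 71.7%, 69.2% and 7.33%.

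**Figure D3:**
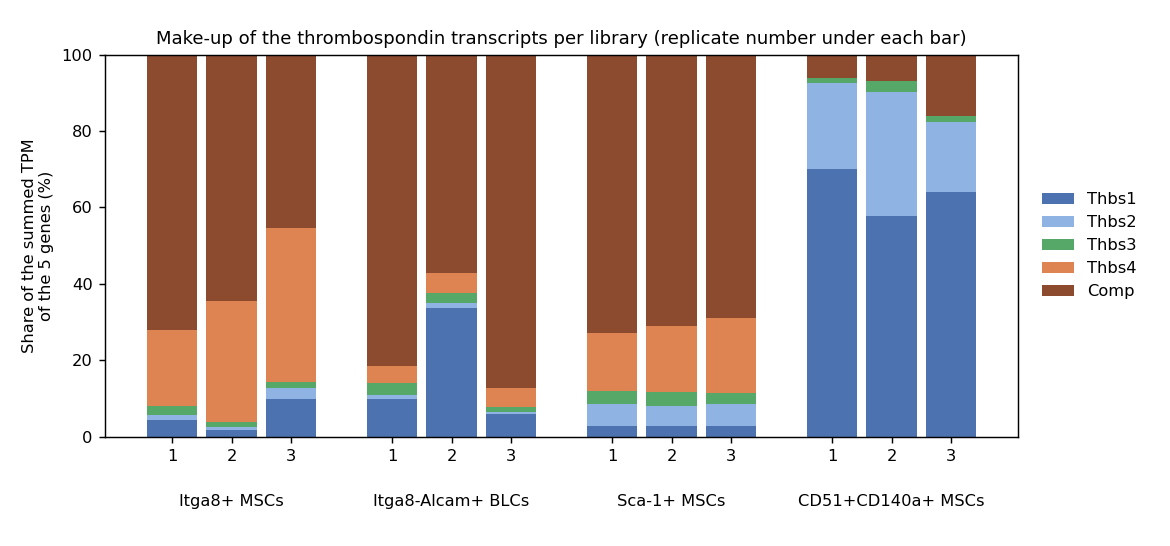
Share of each member in the summed TPM of the 5 genes (percent), 1 bar per library. Comp and Thbs4 fill most of the 9 bone bars, and Thbs1 and Thbs2 most of the 3 CD51+CD140a+ bars, where Thbs3, Thbs4 and Comp together hold 7.48% to 17.7%.

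Ratios of members within a library do not depend on how libraries are scaled to each other. The TPM ratio of Thbs4 to Comp was 0.280, 0.486 and 0.888 in replicates 1, 2 and 3 of Itga8+ cells. In Itga8-Alcam+ cells it was 0.0546, 0.0922 and 0.0570, and in Sca-1+ cells 0.208, 0.245 and 0.284. The Itga8+ libraries overlapped those of Sca-1+ cells and lay above all of those of Itga8-Alcam+ cells, so the gap between the Alcam+ populations was also seen in this ratio. In CD51+CD140a+ cells the ratio was 0.000641, 0.00564 and 0.00257, and the lowest of these rests on the 1 read of Thbs4. The TPM ratio of Thbs2 to Thbs1 was above 1 only in Sca-1+ cells, at 2.15, 1.96 and 2.11. It was 0.242, 0.492 and 0.285 in Itga8+ cells, 0.101, 0.0394 and 0.0906 in Itga8-Alcam+ cells, and 0.320, 0.561 and 0.284 in CD51+CD140a+ cells. Itga8-Alcam+ libraries were below all others in this ratio. Thbs3 to Comp was 0.0171 to 0.0495 in the 9 bone libraries and 0.0998 to 0.418 in CD51+CD140a+ cells. Of the 18 comparisons of a ratio between populations, 15 had no overlap, each with an exact two-sided permutation p of 0.1, the smallest the design allows and 0.12 after Benjamini-Hochberg adjustment over the 18. No ratio can therefore pass a threshold of 0.05.

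**Figure D4:**
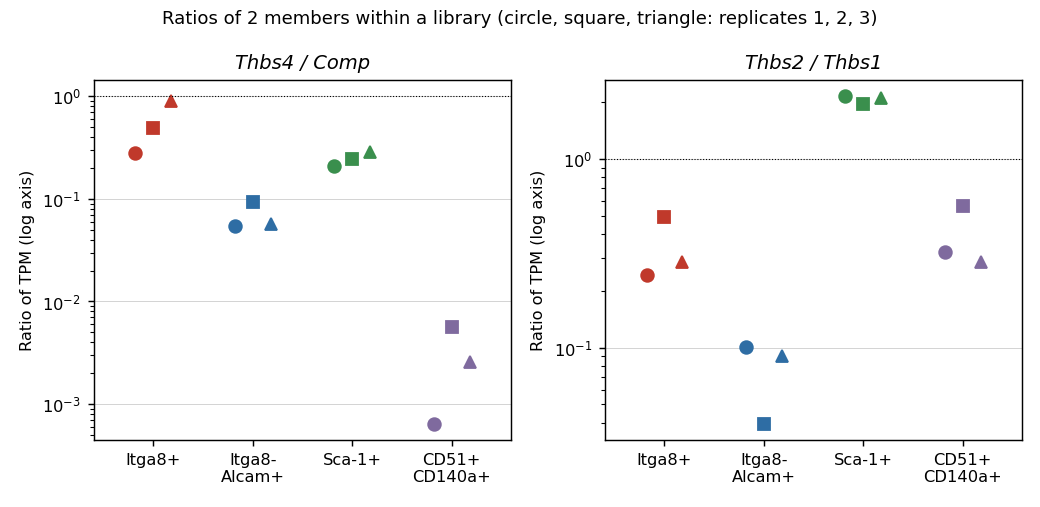
TPM ratio of Thbs4 to Comp (left) and of Thbs2 to Thbs1 (right) in each library, on log axes; the dotted line is 1. Thbs4 to Comp is 0.280 to 0.888 in Itga8+ cells and 0.0546 to 0.0922 in Itga8-Alcam+ cells, and Thbs2 to Thbs1 is above 1 in Sca-1+ cells.

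Because Comp and Thbs4 are known from cartilage and tendon, markers of these tissues were summed in each library. The 11 cartilage markers summed to 90755, 35446 and 129878 CPM in Itga8+ replicates 1, 2 and 3, and to 54132, 81044 and 19347 CPM in Itga8-Alcam+ cells. In Sca-1+ cells they summed to 7245, 7781 and 9639 CPM, of which Chad (chondroadherin) gave a mean of 6591, and in CD51+CD140a+ cells to 655.6, 605.1 and 1452 CPM. Col2a1, the main collagen of cartilage, was at 5269 to 105479 CPM in the Alcam+ libraries, 972.6 to 1248 in the Sca-1+ libraries and 394.6 to 1089 in the CD51+CD140a+ libraries. None of the 11 was at 0 throughout a population. Comp was at 7655 to 8527 CPM in the Sca-1+ libraries and at 4646 to 9170 CPM in the Itga8+ libraries, although the marker sum of every Sca-1+ library was below that of every Alcam+ library. Within CD51+CD140a+ cells the library with the highest Comp, replicate 3, was also the one with the highest marker sum. In Itga8-Alcam+ cells replicate 2 was highest in both. In Itga8+ cells Comp was highest in replicate 1 but the marker sum in replicate 3. In Sca-1+ cells Comp was highest in replicate 2 and the marker sum in replicate 3. In cartilage markers, 10 of 11 were higher in Itga8+ cells than in Sca-1+ cells (12.9% of all genes), with a median log2 fold change of 5.65. Between the 2 Alcam+ populations 0 of 11 were called by edgeR, where 1.66% of all genes were higher and 2.16% lower, and the median was 0.146. Against CD51+CD140a+ cells, 10 of 11 were higher in Itga8+ cells, 11 in Itga8-Alcam+ cells and 5 in Sca-1+ cells, where 21.2%, 20.4% and 11.2% of all genes were higher. The medians were 6.48, 6.32 and 0.899 beside 0.182, 0.0909 and -0.00256. The part of cartilage cells in the levels of Comp within a population was not tested.

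**Figure D5:**
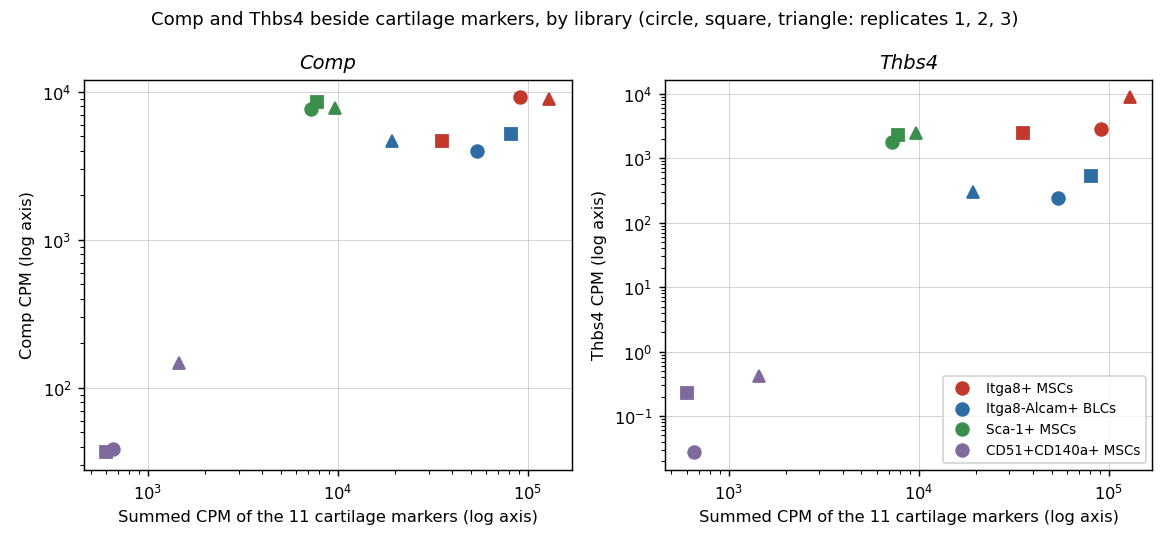
Comp (left) and Thbs4 (right) CPM against the summed CPM of 11 cartilage markers, 1 point per library, both axes log. The Sca-1+ libraries have Comp of 7655 to 8527 CPM at marker sums of 7245 to 9639, and the Itga8+ libraries 4646 to 9170 CPM at sums of 35446 to 129878.

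Of 11 tendon fibroblast markers, 5 were higher and 0 lower in Itga8+ cells than in Itga8-Alcam+ cells, in the direction of Thbs4, where 1.66% of all genes were higher and 2.16% lower, with a median log2 fold change of 2.29 beside 0.0838 over all genes tested. Against Sca-1+ cells, 4 were higher and 1 lower in Itga8+ cells (median 0.903 beside 0.156), and 1 was higher and 4 lower in Itga8-Alcam+ cells (median -1.66 beside 0.117), where 12.9% of all genes were higher and 8.89% lower, and 14.5% and 11.9%. Against CD51+CD140a+ cells, 9 were higher and 2 lower in Itga8+ cells, 8 and 3 in Itga8-Alcam+ cells, and 7 and 2 in Sca-1+ cells, with medians of 6.98, 6.01 and 6.19 beside 0.182, 0.0909 and -0.00256 over all genes tested. The backgrounds were 21.2% higher and 14.3% lower, 20.4% and 14.9%, and 11.2% and 9.30% of all genes. The list holds Egr1, an immediate early gene that was at 5840 to 7376 CPM in CD51+CD140a+ cells. Without Egr1, left out after its values had been seen, the sum was 12517 to 23969 CPM in Itga8+ cells, 5170 to 14542 in Itga8-Alcam+ cells, 7679 to 10890 in Sca-1+ cells and 9000 to 10222 in CD51+CD140a+ cells, where Tnc gave a mean of 9237 and Kera and Scx had 3 reads or fewer in every library. The part of tendon cells in the level of Thbs4 was not tested. Of 10 osteoblast markers, 9 were lower in Itga8+ cells than in Itga8-Alcam+ cells (2.16% of all genes), with a median log2 fold change of -3.9 beside 0.0838, and the sums were 2932 to 9176 and 44789 to 117116 CPM, opposite in direction to Thbs4. They summed to 18400 to 22088 CPM in Sca-1+ cells, where Col1a1 gave a mean of 17261. In CD51+CD140a+ cells they summed to 10411 to 20972 CPM, where Ibsp gave a mean of 10118. By gene, 5 were higher and 1 lower in Itga8+ cells than in Sca-1+ cells (median 0.821), and 7 and 0 in Itga8-Alcam+ cells (4.39). Against CD51+CD140a+ cells, 1 was higher and 4 lower in Itga8+ cells, 6 and 1 in Itga8-Alcam+ cells, and 1 and 6 in Sca-1+ cells. The medians were -0.813, 2.14 and -2.6. The backgrounds were those given for the tendon markers. The 10 markers of LepR+ marrow stroma summed to 707.2 to 1600 CPM in the populations from bone and to 60416 to 79273 CPM in CD51+CD140a+ cells.

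Platelets and their precursors are rich in Thbs1, so their markers were read beside it. The 10 megakaryocyte and platelet markers together summed to 17.0 to 55.2 CPM in all 12 libraries, and the highest of them, Itga2b, had means of 12 to 21.9 CPM. Gp6 and Treml1 were at 0 in all Sca-1+ libraries, and Gp6 also in all CD51+CD140a+ libraries. In the 2 libraries with the highest Thbs1, Itga8+ replicate 3 and Itga8-Alcam+ replicate 2, the sums were 55.2 and 41.9 CPM, the highest of their populations, against Thbs1 levels of 3948 and 6321 CPM. Itga8-Alcam+ replicate 1, at 984.1 CPM of Thbs1, had a nearly equal sum of 41.1 CPM. The 7 pericyte and smooth muscle markers were also highest in the 2 libraries with the highest Thbs1, at 593.1 and 587.3 CPM. They were at 130.5 to 305.9 CPM in the other 10. Their part in the level of Thbs1 was not tested. Immediate early and stress genes, which dissociation can raise, summed to 11043 to 18190 CPM in the bone libraries and to 21186 to 28888 CPM in CD51+CD140a+ cells. Endothelial markers summed to 11.7 to 39.6 CPM outside Sca-1+ cells and 77.1 to 113.8 in them, and skeletal muscle markers to 1.69 to 39.9 CPM, with Myh1, Myh4 and Myod1 at 3 reads or fewer in every library of Itga8+, Sca-1+ and CD51+CD140a+ cells. Myeloid and lymphoid markers summed to 2309 to 11841 CPM in the Alcam+ libraries and 883.7 to 1730 CPM in the others, with Cd3e at 0 in all libraries, and erythroid markers to 125.4 to 433.8 CPM, except for 1598 CPM in Itga8+ replicate 2. The latter library had the highest blood cell sums and the lowest Thbs1, Thbs2, Thbs3, Thbs4 and Comp of its population, and the part of these cells in its values was not tested.

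Thbs1 acts on cells through Cd36, Cd47, the Lrp1 and calreticulin pair and integrins, and Thbs2 is cleared through Lrp1. Among 15 receptor genes, 0 were higher and 1 lower in Itga8+ cells than in Itga8-Alcam+ cells, 2 were higher and 2 lower than in Sca-1+ cells, and 4 higher and 2 lower than in CD51+CD140a+ cells. In Itga8-Alcam+ cells, 2 were higher and 1 lower than in Sca-1+ cells and 4 higher and 2 lower than in CD51+CD140a+ cells, and in Sca-1+ cells 5 were higher and 2 lower than in CD51+CD140a+ cells. The median log2 fold changes of the 15 lay between -0.552 and 0.104, beside -0.00256 to 0.182 over all genes tested. The backgrounds, in the same order of comparisons, were 1.66% higher and 2.16% lower, 12.9% and 8.89%, 21.2% and 14.3%, 14.5% and 11.9%, 20.4% and 14.9%, and 11.2% and 9.30% of all genes. The 4 of 15 higher against CD51+CD140a+ cells in each Alcam+ population were near the background. The 5 of 15 higher in Sca-1+ cells than in CD51+CD140a+ cells stood above their background of 11.2%. Itgb1, the shared beta chain of many matrix receptors, was at 335.1 to 1217 CPM and Calr at 467.4 to 987.5 CPM, and neither was called in any comparison, nor was Lrp1 at 84.6 to 1151 CPM. Cd47 (166.2 to 480.3 CPM) and Cd36 (2.14 to 17.3 CPM) were named after their values had been seen. Vldlr, a lipoprotein receptor that binds thrombospondin 1, was lower in Itga8+ cells than in Itga8-Alcam+ cells (2.91 to 7.97 against 48.9 to 72.6 CPM, log2 fold change -3.54, FDR 0.000604). The related receptor Lrp8 was higher in all bone populations than in CD51+CD140a+ cells, by 5.11, 4.65 and 2.76 on the log2 scale in Itga8+, Itga8-Alcam+ and Sca-1+ cells (FDR 0.00121, 0.00186 and 0.0336). Itgb3, which pairs with Itgav to bind the RGD sequence, was highest in Sca-1+ cells, at 29.9 to 75.1 CPM against at most 22.3 elsewhere. Sdc4, a heparan sulphate proteoglycan of the cell surface, was higher in Itga8+ cells and Itga8-Alcam+ cells than in CD51+CD140a+ cells (1.46 and 2.60, FDR 0.00658 and 0.000181). Its relative Sdc1 was lower in all bone populations than in CD51+CD140a+ cells, with log2 fold changes of -2.92, -3.40 and -2.60 (FDR 0.000154, 5.99e-05 and 0.000374), and so was Itga3, with -3.06, -2.14 and -2.79 (FDR 0.00294, 0.0162 and 0.00611).

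Collagens, matrilins, fibronectin and proteoglycans that bind Comp or other thrombospondins were read as a list of 18 matrix partners. Against CD51+CD140a+ cells, 11 were higher in Itga8+ cells, 12 in Itga8-Alcam+ cells and 10 in Sca-1+ cells, and 0 were lower, with medians of 2.50, 4.49 and 1.91 beside 0.182, 0.0909 and -0.00256 over all genes tested. The direction was that of Thbs3, Thbs4 and Comp. The backgrounds were 21.2% higher and 14.3% lower, 20.4% and 14.9%, and 11.2% and 9.30% of all genes. Between the populations from bone the calls went both ways, with 1 higher and 2 lower in Itga8+ cells than in Itga8-Alcam+ cells, 8 higher and 5 lower than in Sca-1+ cells, and 9 higher and 5 lower in Itga8-Alcam+ cells than in Sca-1+ cells. The medians were -0.166, 0.72 and 2.04, and the backgrounds 1.66% higher and 2.16% lower, 12.9% and 8.89%, and 14.5% and 11.9% of all genes. Matn3, a cartilage matrilin that binds Comp, was at 1960 to 5558 CPM in the Alcam+ libraries and at 1.07 to 43.9 CPM in the others. Col9a2, a chain of the collagen IX that Comp binds, was at 288.5 to 3851 CPM against 7.90 to 41.0 CPM. Col14a1, a fibril-associated collagen, showed the reverse, with 584.0 to 961.8 CPM in Sca-1+ cells and at most 16.5 CPM elsewhere. Fn1, fibronectin, was at 437.1 to 20730 CPM in the bone libraries and 27.7 to 68.0 CPM in CD51+CD140a+ cells (log2 fold changes 6.92, 5.36 and 8.52, FDR 0.00103, 0.00320 and 0.000461). Col1a2 was lower in Itga8+ cells than in Itga8-Alcam+ cells (-3.99, FDR 0.0153), and Col12a1, a collagen of tendon and ligament, was higher there (2.17, FDR 0.0570), as Thbs4 was. The Itga8+ libraries with the highest and lowest Thbs1, replicates 3 and 2, also held the highest and lowest Fn1 of their population. Several of these genes (Col2a1, Acan, Matn1, Matn3 and Col9a1) are also cartilage markers, and Col1a1 is also an osteoblast marker.

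Of 8 proteases that cut or bind thrombospondins, 2 were higher and 5 lower in Itga8+ cells than in CD51+CD140a+ cells, 1 was higher and 4 lower in Itga8-Alcam+ cells, and 2 were higher and 2 lower in Sca-1+ cells. Between the populations from bone 0 were higher, with 1 lower in Itga8+ cells than in Itga8-Alcam+ cells and 2 lower than in Sca-1+ cells in each Alcam+ population. The medians against CD51+CD140a+ cells were -2.57, -1.57 and 0.114, and the backgrounds 21.2% higher and 14.3% lower, 20.4% and 14.9%, and 11.2% and 9.30% of all genes. Between the populations from bone the medians were -1.0, -1.43 and -0.602. The backgrounds there were 1.66% higher and 2.16% lower, 12.9% and 8.89%, and 14.5% and 11.9% of all genes. Mmp2, a gelatinase bound by Thbs2, was higher in all 3 bone populations, at 1305 to 3858 CPM against 66.0 to 100.1 CPM (log2 fold changes 4.85, 4.46 and 4.68, FDR 1.03e-05, 1.54e-05 and 1.24e-05). Adamts1, which cleaves Thbs1 and Thbs2, was lower in them (-3.96, -2.83 and -2.45, FDR 0.00312, 0.0144 and 0.0402), and so was the collagenase Mmp13 (-6.03, -2.67 and -1.89, FDR 6.14e-05, 0.00501 and 0.0383). Mmp13 was also lower in Itga8+ cells than in Itga8-Alcam+ cells (-3.36, FDR 0.0106). Adamts12, a protease of Comp, was at 17.0 to 25.6 CPM in Sca-1+ cells, 5.62 to 9.54 CPM in CD51+CD140a+ cells and at most 2.32 CPM in the Alcam+ libraries. Htra1, which also cuts Comp, was at 326.6 to 1031 CPM in all libraries, and was lower in Itga8-Alcam+ cells than in Sca-1+ cells (-1.29, FDR 0.00265).

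Thbs1 activates latent TGF-beta, which is stored in the matrix by latent TGF-beta binding proteins. Of 13 genes of this process, 8 were lower and 1 higher in Itga8-Alcam+ cells than in Sca-1+ cells (median log2 fold change -1.82 beside 0.117 over all genes tested), and 4 were lower and 0 higher in Itga8+ cells (median -0.610 beside 0.156). Against CD51+CD140a+ cells there were 4 higher and 3 lower in Itga8+ cells, 3 and 3 in Itga8-Alcam+ cells and 4 and 1 in Sca-1+ cells, and against Itga8-Alcam+ cells 1 was higher and 0 lower in Itga8+ cells. The medians against CD51+CD140a+ cells were 0.902, -0.0249 and 1.02, beside backgrounds of 21.2% higher and 14.3% lower, 20.4% and 14.9%, and 11.2% and 9.30% of all genes. The backgrounds against Sca-1+ cells were 14.5% higher and 11.9% lower for Itga8-Alcam+ cells, and 12.9% and 8.89% for Itga8+ cells. Between the 2 Alcam+ populations the median was 0.622 beside 0.0838 over all genes tested, with 1.66% of all genes higher and 2.16% lower. Ltbp4 was at 994.3 to 1490 CPM in Sca-1+ cells, 15.4 to 384.1 in Itga8+ cells, 7.61 to 51.5 in Itga8-Alcam+ cells and 5.08 to 6.80 in CD51+CD140a+ cells. Ltbp1 was at 772.6 to 1063 CPM in Sca-1+ and CD51+CD140a+ cells and at 15.6 to 297.4 CPM in the Alcam+ libraries. Ltbp2 was the gene called between the 2 Alcam+ populations, higher in Itga8+ cells by 3.40 on the log2 scale (FDR 0.0967), with libraries at 49.5, 32.2 and 499.4 CPM against 12.9, 36.0 and 6.06 CPM that overlap. Tgfb1 itself was at 6.75 to 74.1 CPM in the Alcam+ libraries and 18.1 to 25.4 CPM in the others.

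Other proteins with thrombospondin type 1 repeats were counted as the relatives of Thbs1 and Thbs2, together with the cartilage proteins Cilp and Cilp2. Of the 55 listed, 53 passed the filter. Higher and lower calls against CD51+CD140a+ cells numbered 19 and 19 in Itga8+ cells, 15 and 18 in Itga8-Alcam+ cells and 12 and 14 in Sca-1+ cells. Their medians were 0.0407, 0.235 and 0, beside backgrounds of 21.2% higher and 14.3% lower, 20.4% and 14.9%, and 11.2% and 9.30% of all genes. Against Sca-1+ cells, 16 were higher and 17 lower in Itga8+ cells and 14 higher and 19 lower in Itga8-Alcam+ cells, and 2 were higher and 5 lower in Itga8+ cells than in Itga8-Alcam+ cells. The medians in these 3 comparisons were -1.29, -0.425 and -0.132, and the backgrounds 12.9% higher and 8.89% lower, 14.5% and 11.9%, and 1.66% and 2.16% of all genes. The matricellular proteins Ccn1 and Ccn2 were among the most abundant, at 1310 to 10560 and 895.9 to 5006 CPM. Rspo2, an agonist of Wnt signalling, was at 101.8 to 126.9 CPM in CD51+CD140a+ cells, 10.3 to 11.4 in Sca-1+ cells and at most 0.834 in the Alcam+ libraries. Thsd4, a protein of fibrillin microfibrils, was at 315.5 to 424.6 CPM in CD51+CD140a+ cells and at most 34.4 CPM in the bone libraries.

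The genes whose profiles were most like those of the members were ranked by the root mean square difference of log2(CPM + 1) values, each centred on its mean over the 12 libraries, among 10564 genes. These are descriptions over libraries that share populations and base composition. Cilp, Cilp2 and Cpxm2 were nearest to Thbs4 (differences of 1.08, 1.30 and 1.46, where Thbs4 itself spread by 4.63 around its mean). Cilp was at 902.9 to 9688 CPM in Itga8+ cells, 243.4 to 882.6 in Itga8-Alcam+ cells, 9445 to 10604 in Sca-1+ cells and 0.301 to 2.64 in CD51+CD140a+ cells. Cpxm2, a carboxypeptidase-like protein, had the order of Thbs4, at 418.1 to 805.8, 43.3 to 51.6, 164.4 to 195.7 and at most 0.573 CPM in these populations. It was higher in Itga8+ cells than in Itga8-Alcam+ cells (log2 fold change 3.51, FDR 0.0159). Comp was nearest to Fbln7, Fmod and Clec3a (0.518, 0.550 and 0.561), which encode a fibulin, the collagen-binding fibromodulin and a cartilage lectin. Fmod was at 3407 to 12462 CPM in the bone libraries and 59.7 to 86.5 CPM in CD51+CD140a+ cells. Thbs3 was nearest to Aff3, Gfpt2 and Bnc2 (0.313, 0.378 and 0.434), and Thbs2 to Zfp521, Pkd2 and Lama2 (0.324, 0.378 and 0.38). Thbs1 was nearest to Gm29233 (0.0977), with which it shares exon bases, and then to Slc39a14 and Scarf2 (0.403 and 0.513). Within the family, the pentameric members were not uniformly near each other by this measure. Among the genes most like Thbs4, Comp stood at rank 9 and Thbs3 at rank 81. Among those most like Comp, Thbs3 stood at rank 45 and Thbs4 at rank 226. Among those most like Thbs3, Comp stood at rank 315 and Thbs4, which spread more widely, at rank 9849, farther than Thbs2 at 3324 and Thbs1 at 5863. This measure counts a difference in amplitude, and by Pearson's r the order was another, with Comp at rank 38 (r = 0.952) and Thbs4 at rank 48 (r = 0.946) for Thbs3, against rank 2179 (r = 0.39) for Thbs2 and rank 3701 (r = 0.186) for Thbs1.

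Protein-coding genes next to the members are given for context. Smoc2, a matrix protein gene 260710 bases from Thbs2, was at 589.5 to 1092 CPM in the Alcam+ libraries, 228.5 to 244.2 CPM in the Sca-1+ libraries and 21.9 to 27.0 CPM in the CD51+CD140a+ libraries, whereas Thbs2 was highest in the Sca-1+ libraries. Crtc1, 289 bases from Comp, was at 3.79 to 23.4 CPM, and Upf1, 20280 bases away on the other side, at 4.26 to 112.3 CPM, and neither was called in any comparison. Serinc5 and Mtx3, at 39643 and 49942 bases from Thbs4, were at most at 250.1 and 1.5 CPM, again with no call. Muc1, 2220 bases from Thbs3, was higher in all bone populations than in CD51+CD140a+ cells, as Thbs3 was, at 2.19 to 35.5 against 0.745 to 1.51 CPM (log2 fold changes 4.42, 3.85 and 1.31, FDR 2.88e-05, 6.47e-05 and 0.0453). Beside Thbs1, Rasgrp1 and Fsip1 were at most at 1.2 and 0.765 CPM. Wdr27, next to Thbs2, was at most at 0.203 CPM and did not pass the filter.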

How the data were processed

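Bulk RNA-seq was made from 12 libraries, 3 for each of 4 populations. The authors deposited whole-number read counts per Ensembl gene, 1 file per library, with no normalization. The submitters' processing notes name FastQC 0.11.7, Trimmomatic 0.38, HISAT2 2.1.0, SAMtools 1.9, featureCounts 1.6.3 and mm10, whereas the study's methods name TopHat and Bowtie2. The strand setting and the annotation release are not given in the sources used here. Identifiers were matched to symbols, exons and coding sequences of GENCODE M21, where 259 of 49585 were not found. Promoters were taken from a RefSeq table.

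The test covered the 18648 genes that reached 0.5 CPM in any library and left 30937 out. It was run with edgeR 4.0.16 in R 4.3.3, by the quasi-likelihood test with TMM scaling, in 1 fit of all 12 libraries. P-values were adjusted by Benjamini-Hochberg over all genes tested, and a call needed an FDR below 0.1 together with a fold change over 2, the study's thresholds. Intervals are 95% intervals of the fitted log2 fold changes. Single values were also compared by exact two-sided permutation tests of 3 libraries against 3. TPM was computed from the union of exons. Likeness was computed with a pseudocount of 1 CPM. DESeq2 1.42.0, limma-trend (limma 3.58.1), other scalings, filters and thresholds, fits of 2 populations, thinned counts, a replicate block and leaving out each library were alternatives.

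The replicate numbers were not taken to pair libraries, because correlations of same-numbered deviations ran from -0.736 to 0.336. On simulated counts for Itga8+ cells against Itga8-Alcam+ cells (17737 genes, 200 changed), edgeR recovered 39.5% of the changed genes with 6 false calls. On the same counts, DESeq2 recovered 61.5% with 68 false calls, and limma-trend 42.0% with 10. Totals of 17580677 to 31332475 counts per library set the precision, and reads are not independent molecules, so the floor of 3 counts covers counting error only.

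The members and all gene lists were chosen with earlier results of these data known. The genes named from each pathway list are the 3 of highest mean CPM and, per comparison, the called genes with the most positive and the most negative log2 fold change at 10 CPM or more in the higher population. The 3 genes most like each member, the nearest protein-coding genes, the sort genes and the highest gene of each marker list were also named, and other marker genes, Cd36, Cd47 and the overlapping genes were added after their values had been seen. Some genes that these rules name are not reported here. Python 3.11.15 (numpy 2.4.6, pandas 2.3.3, scipy 1.17.1, matplotlib 3.10.9) was used for the rest.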

Additional observations from a re-analysis of the deposited data

How the results depend on the processing

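The number of members called in Itga8+ cells against Itga8-Alcam+ cells was 1, and 2 with DESeq2 and between 1 and 2 with a library left out (2 without Itga8+ replicate 2, Thbs2 being the added member). Against Sca-1+ cells it was 0 with edgeR, and 1 with limma-trend and between 0 and 1 with a library left out (1 without Itga8+ replicate 3, again Thbs2). The counts of the other 4 comparisons stayed within 1.5 times. When a library was left out, 5 log2 fold changes turned: Thbs1 in Itga8+ cells over Itga8-Alcam+ cells (-1.86 to 1.17) and over CD51+CD140a+ cells (-0.32 to 1.52), Thbs1 in Itga8-Alcam+ cells over CD51+CD140a+ cells (-0.16 to 2.00), Thbs2 in Itga8+ cells over CD51+CD140a+ cells (-0.65 to 1.13) and Comp in Itga8+ cells over Sca-1+ cells (-0.24 to 0.16). None of these 5 was called in any of these fits. Among the other alternatives, 288 of the values kept their direction and their side of the threshold, 8 passed it newly and 4 fell short of it. With the replicate number as a block, the log2 fold change of Thbs3 in Itga8-Alcam+ cells over Sca-1+ cells was -1.27 (FDR 0.138) and that of Thbs2 in Sca-1+ over CD51+CD140a+ cells 2.01 (FDR 0.105), both short of the threshold, and the block changed no other call of a member.

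Over all genes, Itga8+ cells against Itga8-Alcam+ cells gave 310 higher and 402 lower genes, but 597 and 606 with DESeq2, 107 and 169 in a fit of these 2 populations, 188 and 245 with the block, and 495 and 313 when scaled by library totals alone. A fit of 2 populations gave 1588 higher genes in Itga8+ cells than in Sca-1+ cells, in place of 2397. With 1 library left out, the first comparison gave 197 to 446 higher genes (203 and 197 without Itga8-Alcam+ replicates 1 and 3) and 236 to 440 lower ones (259 without Itga8+ replicate 1 and 236 without Itga8-Alcam+ replicate 3). Against Sca-1+ cells, Itga8+ cells then had 1358 to 3110 higher genes (1514, 1358 and 1376 without Sca-1+ replicates 1, 2 and 3) and 1028 to 2768 lower ones in place of 1658 (1028 without Sca-1+ replicate 2 and 2768 without Itga8+ replicate 3). The other 4 comparisons stayed within 1.5 times. Library totals alone gave 2171 higher and 2929 lower genes in Itga8-Alcam+ cells than in Sca-1+ cells, in place of 2706 and 2224, and 2934 and 4090 against CD51+CD140a+ cells, in place of 3808 and 2770. Library totals alone moved the median of all genes from 0.0838 to 0.341 in Itga8+ against Itga8-Alcam+ cells, from 0.117 to -0.0676 in Itga8-Alcam+ against Sca-1+ cells and from 0.0909 to -0.237 in Itga8-Alcam+ against CD51+CD140a+ cells. No member changed its direction under either other scaling. The cause of these changes was not tested.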
